A study of Mus musculus with 10 samples.

Results

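T cell receptor genes are built from variable (V), joining (J) and constant (C) segments, and the 128 segments described here are the rows of a mouse gene expression table of 20813 genes whose symbols name such a segment. They comprise 46 Trav, 41 Traj and Trac of the alpha chain, 13 Trbv, 14 Trbj and 2 Trbc genes of the beta chain, 4 V, 1 J and 3 C genes of the gamma chain, and 2 V and 1 C gene of the delta chain. The GENCODE M21 annotation lists 270 T cell receptor genes, and the other 142 are not analysed here. The names matched the annotation for every one of the 128 rows.

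RNA was sequenced from 10 leukemic spleens of C57BL/6 mice, 5 labelled Sirt1-deleted (replicates 7, 8, 10, 11 and 12) and 5 control (replicates 2 to 6). All recipients had undergone sublethal irradiation and were injected, into a vein, with a T cell acute lymphoblastic leukemia (T-ALL, a cancer of immature T cells) that carried a conditional Sirt1 knockout allele. The labelled Sirt1-deleted mice were given tamoxifen, 3 mg per mouse in corn oil, into the abdominal cavity, and the controls corn oil alone. Tamoxifen and the genotype label coincide in all 10 samples, so the effects of the drug and of the deletion cannot be told apart. The driver of the recombinase, the ages of the mice and whether the leukemias descend from the same tumor are not given in the sources used here. Whole spleen cell suspensions were used after lysis of red cells, so host cells that survived irradiation are part of each sample.

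A developing T cell joins a V and a J segment, with a D segment between them in the beta and delta chains, by cutting the DNA with the RAG1 and RAG2 recombinase. The joined segment is spliced to a constant gene, which encodes the part of the chain that anchors it in the membrane beside the CD3 signalling proteins. All descendants of a cell inherit its joints, so a population grown from few cells can be dominated by few V segments, whereas a mixed population uses many.

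Values are normalized counts, the deposited unit, with no raw counts behind them here. The libraries summed to between 33.7 and 34.5 M normalized counts (M, mega), and the 128 segments held 0.398% to 0.469% of a library. Sirt1, the targeted gene, did not separate the groups: it was at 1873 ± 146 (SD, n = 5) in the labelled Sirt1-deleted libraries and 1810 ± 62.5 (SD, n = 5) in controls, with a limma adjusted p of 0.568. A single value for the whole gene, in samples that include host cells, does not show whether the deletion took place. Over all tested genes, labelled Sirt1-deleted 10 and 11 had the highest mean correlations with the control libraries within their group (0.977 and 0.981, against 0.968 to 0.974 for the rest of the group), and control libraries correlated with each other at 0.986 to 0.987. Nothing in the labels says whether samples came from separate litters or days, so p-values measure only the spread between these samples. In bulk tissue, fewer cells of a type and less RNA per cell cannot be told apart.

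Most segments were scarce. A total of 56 of the 128 had a mean under 5 normalized counts, 47 were listed at 0 in at least 1 library, 23 reached a mean of 100 and 7 reached 1000. Per kilobase of annotated transcript, Trbc1 led with a mean level of 101736, followed by Trbc2 at 48131 and Trbv12-2 at 39102. Trbj2-1 stood at 25880, Trac at 11617, Trav7-5 at 4950, Tcrg-C4 at 3713 and Traj27 at 1386 on the same scale. Trbj2-1 and Traj27 are annotated at 50 and 59 bases, against 935 for Trac. Division by length alone does not make such short segments comparable with V and C genes, so their places in this order are uncertain. Among the V and C genes listed, the highest levels per length belonged to the beta chain.

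Differences between the groups were tested with limma for the 52 segments with a mean of at least 10, in a fit across all 15276 genes that reached that mean, and 76 segments were not tested. Of the 52, 13 had a Benjamini-Hochberg adjusted p under 0.05 (25.0%), against 36.1% of all tested genes, so the share of segments called was below the background. The 13 comprised 6 that rose, where the background was 16.8%, and 7 that fell, where it was 19.4%. Under quantile normalization 6 rose and 12 fell, and the share of all tested genes called in that fit is not given here. The groups did not overlap for 11 of the 52 (21.2%), against 24.0% of all tested genes. The median log2 difference, labelled Sirt1-deleted minus control, was -0.24 over the 52 and -0.00014 over all tested genes. Without labelled Sirt1-deleted 10 and 11, left out after the data were seen, 20 of the 52 segments were called, 8 higher and 12 lower. In that fit 45.6% of all tested genes were called, so the background rose as well. Traj17, Traj18 and Traj19 had a group mean of at least 10 only in the labelled Sirt1-deleted group, and Traj41, Trbv20 and Trgv2 only in controls. The filter, on the mean of all 10 libraries, thus admitted these 6 through the group where they were higher, by little for Traj41 (9.98 against 11.08).

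The V segments that fell included the leading one of each of the alpha and beta chains. Of 21 tested V segments, limma called 0 higher and 6 lower, with a median log2 difference of -0.58; at an unadjusted p under 0.05 the counts were 0 and 11, and by the exact rank-sum test 0 and 4. Of 25 tested J segments limma called 5 higher and 0 lower, with a median of -0.10. The unadjusted counts were 5 and 2, and those of the rank-sum test 5 and 0. Among the 5, Traj17 and Traj19 passed the filter only through the labelled Sirt1-deleted group. The filter favoured a rise for that pair, so it does not add to the contrast. Finally, of 6 tested C genes 1 rose and 1 fell. Beside the limma counts, 36.1% of all tested genes were called in either direction, 16.8% higher and 19.4% lower. The shares of all tested genes at an unadjusted p under 0.05 or by the rank-sum test are not given here. The unadjusted and rank-sum counts, here and below, therefore have no background of their own and cannot show an excess over other genes. With 5 against 5 libraries, the smallest rank-sum p belongs to groups that do not overlap. The rank-sum test called as many segments, 11, as had no overlap, so its counts are not separate support. Of all tested genes 24.0% had no overlap, 11.1% higher and 12.9% lower. The 6 V segments that fell were Trbv12-2, Trbv4, Trav7-5, Trav15-1-dv6-1, Trav15n-1 and Trav14-1, the J segments that rose were 5 of the alpha chain, and the C genes that moved were Trbc2 (higher) and Tcrg-C1 (lower).

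Trbv12-2 (chr6:41118851-41119364, mm10, forward strand, annotated as a V gene) was by far the most abundant V segment. In the labelled Sirt1-deleted libraries 7, 8, 10, 11 and 12 it stood at 12141, 13225, 13204.5, 14101 and 8998 normalized counts. In controls 2 to 6 it stood at 18236, 17885, 17682, 17664 and 17404. Every labelled Sirt1-deleted library lay below every control, with replicate 12 the lowest. The means were 12334 ± 1990 and 17774 ± 309 (SD, n = 5 each), a log2 difference of -0.54 with SE 0.10 and a limma adjusted p of 0.00185.

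It made up nearly the whole of its class in both groups. Trbv12-2 made up 98.3% to 99.6% of the Trbv sum in every library, 99.2% ± 0.300 in the labelled Sirt1-deleted group and 98.9% ± 0.362 in controls (exact two-sided permutation p = 0.175, n = 5 each). The effective number of Trbv segments, the inverse Simpson index of the shares, which would be 1 for a single segment, was 1.01 to 1.03 in all 10 libraries. For comparison, immunoglobulin V segments, the antibody counterpart in spleen B cells, gave 22.4 to 37.9 for the heavy chain and 24.6 to 38.7 for kappa, while the 3 Iglv rows of the lambda chain gave 1.58 to 1.95. As a share of all beta chain counts, Trbv12-2 was 8.6%, 9.47%, 10.9%, 10.9% and 6.34% in the labelled Sirt1-deleted libraries and 13.7% to 15.7% in controls. The groups did not overlap (9.24% ± 1.89 against 14.3% ± 0.818, exact permutation p = 0.00794, the smallest that 5 against 5 samples can give).

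**Figure D1:**
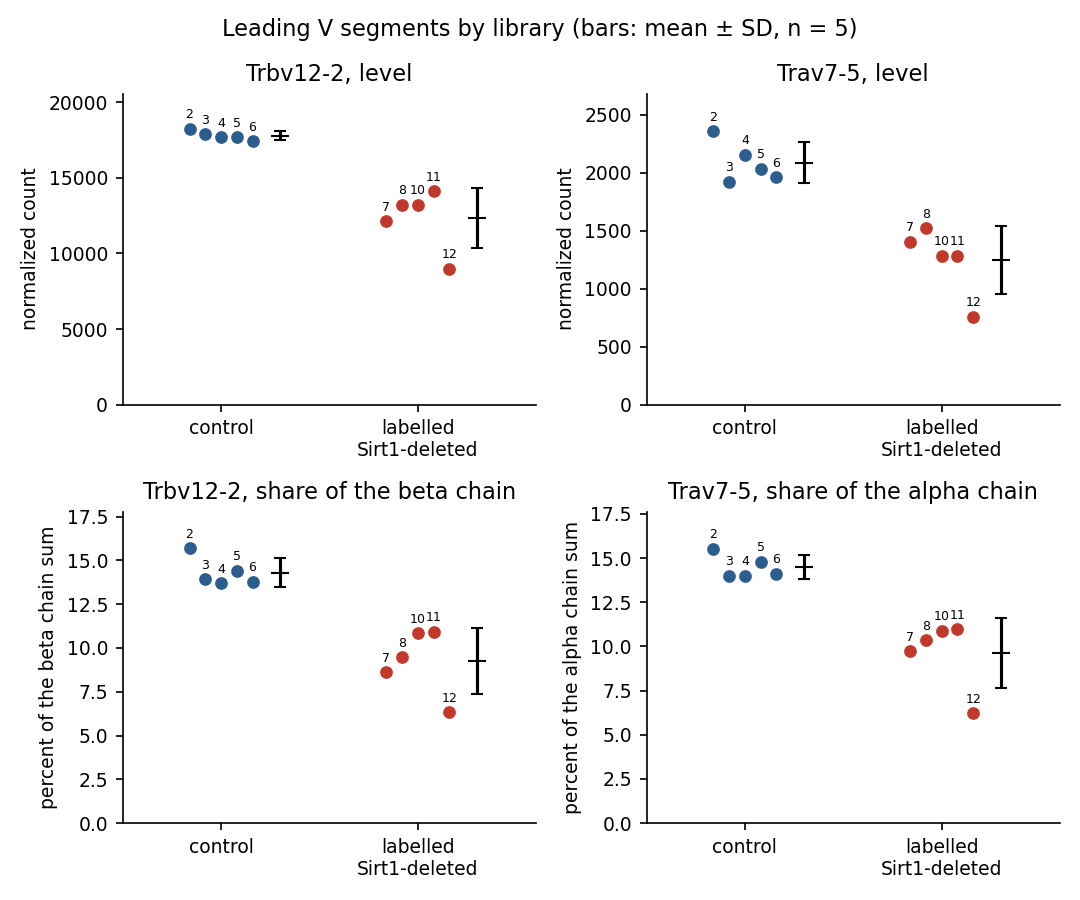
Level (normalized count) and share of its chain (percent) for Trbv12-2 and Trav7-5, with 1 point per library labelled by its replicate number and bars for the group mean ± SD (n = 5). In all 4 panels the labelled Sirt1-deleted libraries lie below every control, and replicate 12 is the lowest.

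In the alpha chain the leading V segment was Trav7-5 (chr14:53530786-53531313, forward strand), first among Trav in all 10 libraries. Its normalized counts were 1404, 1522, 1282, 1283 and 759 in labelled Sirt1-deleted 7, 8, 10, 11 and 12, and 2358, 1921, 2155, 2033 and 1962 in controls 2 to 6. Again the groups did not overlap and replicate 12 was the lowest. The means were 1250 ± 292 and 2086 ± 176 (SD, n = 5 each), a log2 difference of -0.77 with SE 0.15 and a limma adjusted p of 0.00284. Its share of the alpha chain was 9.63% ± 1.98 against 14.5% ± 0.674 (exact permutation p = 0.00794, n = 5 each).

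Within the Trav class, Trav7-5 made up 67.4% ± 3.84 in the labelled Sirt1-deleted libraries and 71.7% ± 1.53 in controls (exact permutation p = 0.0238, n = 5 each), with overlapping groups. This call was lost when control 2, 4 or 6 was left out (exact permutation p = 0.0556, 0.0635 and 0.0556). The difference of -4.30 points became -2.71 without labelled Sirt1-deleted 12 (exact permutation p = 0.0397). About 25.7% of its 31-base words occurred in other transcripts, chiefly Trav7d-5, so a part of its reads could have been assigned to copies. Summed without Trav7-5, the Trav class stood at 591 ± 85.5 against 822 ± 67.2 normalized counts, with no overlap. That sum includes Trav15-1-dv6-1, Trav15n-1 and Trav14-1, each called lower, so it does not show a fall across the remaining rows. Of all 12 tested Trav segments, 9 had a negative and 3 a positive log2 difference, and 4 were called, all lower.

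Trav15-1-dv6-1, second in its class in every library and able by its name to join delta segments, ranged from 109 to 179 in the labelled Sirt1-deleted libraries and from 212 to 304 in controls. Its log2 difference was -0.80 (SE 0.15, limma adjusted p = 0.00227), and its share of the alpha chain was 1.08% against 1.70% (exact permutation p = 0.00794). Trav14-1 ranged from 70.5 to 110 and from 124 to 147 normalized counts, with a log2 difference of -0.58 (SE 0.14, limma adjusted p = 0.00775). Trav7-5, Trav15-1-dv6-1 and Trav14-1 thus had labelled Sirt1-deleted values below all controls. Trav15-1-dv6-1 and Trav14-1 share 32.0% and 32.5% of their 31-base words with other transcripts, so the division of reads is uncertain for them too. Trav15n-1 overlapped between groups (65.5 to 103 against 92.5 to 168), with a log2 difference of -0.61 and a limma adjusted p of 0.0231 that was lost in 4 of the 10 fits without 1 library: control 2 (0.0577), control 5 (0.0610), labelled Sirt1-deleted 7 (0.0583) and 12 (0.0555). All of its 31-base words also occur in Trav15d-1-dv6d-1, so its level is uncertain.

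Among the minor Trbv segments, Trbv4 fell by 1.07 on the log2 scale (SE 0.35, limma adjusted p = 0.0308), from 39.1 to 65.3 in controls to 13.7 to 49.2. The call was lost in 6 of the 10 fits without 1 library: control 2, 3 and 5 (limma adjusted p = 0.0752, 0.0525 and 0.0700) and labelled Sirt1-deleted 7, 8 and 12 (0.0760, 0.0593 and 0.0751). It shares 73.6% of its words with 5830405F06Rik. Trbv13-2 had a log2 difference of -0.90 (limma adjusted p = 0.161), with 6.34 to 48.0 against 14.5 to 40.7 normalized counts. Without labelled Sirt1-deleted 11 its log2 difference was -1.30 and the limma adjusted p 0.0267. Summed without Trbv12-2, the Trbv class stood at 100.7 ± 47.0 and 199 ± 63.6, with overlapping groups.

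Among the constant genes, Trbc2 rose, Tcrg-C1 fell and the others did not pass the test. Trac (chr14:54220521-54224206), which every rearranged alpha chain uses, ranged from 9408 to 11824 in the labelled Sirt1-deleted libraries and from 10596 to 12179 in controls (log2 difference -0.09, limma adjusted p = 0.356), with overlap. Its share of the alpha chain was 81.3% ± 1.54 against 77.7% ± 0.935, with no overlap (exact permutation p = 0.00794). Shares of a chain sum to a whole, so a lower V share raises the others.

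Trbc2, the constant gene of the second D-J-C cluster (chr6:41546730-41548352), stood at 38177, 37574, 33827, 36055 and 43163 in labelled Sirt1-deleted 7, 8, 10, 11 and 12, and at 25139, 30761, 29817, 28626 and 29928 in controls 2 to 6. Every labelled Sirt1-deleted value lay above every control. The means were 37759 ± 3456 and 28854 ± 2212 (SD, n = 5 each), a log2 difference of 0.39 with SE 0.07 and a limma adjusted p of 0.00199. Its share of the beta chain was 28.02% ± 1.41 against 23.1% ± 0.915 (exact permutation p = 0.00794).

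Trbc1 (chr6:41538218-41539881), the constant gene of the first cluster, overlapped between groups (68406 to 85549 against 65398 to 74824), with a log2 difference of 0.14 and a limma adjusted p of 0.142. Without labelled Sirt1-deleted 10 that became 0.19 with a limma adjusted p of 0.0325. Trbc1 and Trbc2 share 45.4% and 48.5% of their 31-base words with each other, so how reads were divided between them is uncertain. The ratio of Trbc2 to Trbc1 was 45.1% to 50.5% in the labelled Sirt1-deleted libraries and 38.4% to 41.9% in controls.

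**Figure D2:**
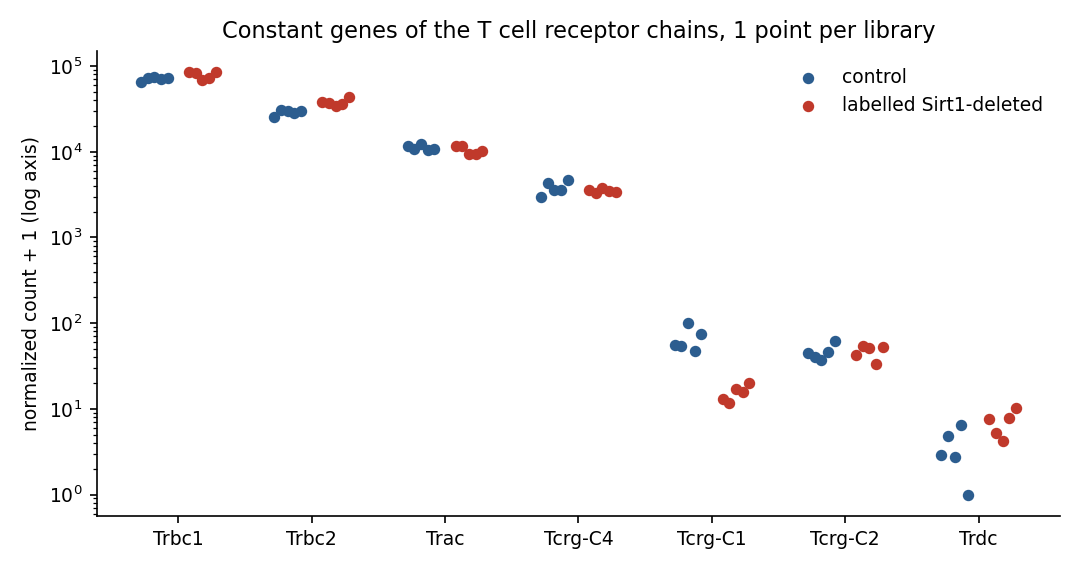
Constant genes, with normalized count + 1 on a log axis and 1 point per library. Trbc2 lies above every control in the labelled Sirt1-deleted libraries, Tcrg-C1 lies below every control, and the groups overlap for Trbc1, Trac, Tcrg-C4, Tcrg-C2 and Trdc.

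Ratios of V to C transcripts were computed after these values were seen and are given as description. Trbv12-2 relative to Trbc1 plus Trbc2 was 9.88%, 11.02%, 12.9%, 13.0% and 6.99% in labelled Sirt1-deleted 7, 8, 10, 11 and 12, and 16.9% to 20.1% in controls. Trav7-5 relative to Trac was 11.9%, 12.9%, 13.6%, 13.6% and 7.40% in the same libraries, and 17.7% to 20.3% in controls. The labelled Sirt1-deleted libraries ranked in the same order for both chains, with 12 lowest and 11 highest.

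Chain totals described the same contrast by class. The alpha chain summed to 12964 ± 1490 and 14382 ± 825, the beta chain to 134688 ± 8971 and 124528 ± 5236, and the gamma chain to 3838 ± 210 and 4260 ± 749 normalized counts, each with overlapping groups. The Trav sum was 1842 ± 367 against 2908 ± 223 and the Trbv sum 12435 ± 2017 against 17973 ± 291, both with every labelled Sirt1-deleted library below every control. The Trbj sum, 5851 ± 961 against 6384 ± 606, overlapped. With C genes left out, a choice made after the values were seen, the log2 ratio of group means was -0.40 for alpha, -0.41 for beta and -0.39 for gamma, in place of -0.15, 0.11 and -0.15. The alpha value joins a lower Trav sum with a higher Traj sum (582 ± 152 against 290 ± 51.5, overlapping). The gamma V sum, 150 ± 41.5 against 212 ± 29.9, and the gamma J sum, 114 ± 22.3 against 135 ± 42.3, overlapped between groups.

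The sum of the CD3 genes Cd3e, Cd3d, Cd3g and Cd247, whose proteins carry the receptor's signal, overlapped between groups at 48235 ± 3344 and 46423 ± 2425.

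The alpha J segments that rose, and Traj43 and Trbj2-1, are shown here because the results on J segments below turn on them: the first 5 by level, Traj43 and Trbj2-1 by share of their class. In each sequence the capitals mark the first match to TTNGGNNNNGGN, a pattern that covers every codon choice for the Phe-Gly-X-Gly turn, which closes the antigen-binding loop encoded across the V-J joint. Its opening TTN also admits leucine codons. Sequences are the annotated J segments of GENCODE M21, read 5′ to 3′ on the forward strand of mm10:
Traj28: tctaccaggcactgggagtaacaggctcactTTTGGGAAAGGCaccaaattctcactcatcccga
Traj27: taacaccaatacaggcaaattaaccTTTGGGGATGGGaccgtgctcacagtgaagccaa
Traj19: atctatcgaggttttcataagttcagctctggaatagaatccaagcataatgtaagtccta
Traj17: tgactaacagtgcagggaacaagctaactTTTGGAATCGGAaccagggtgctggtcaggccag
Traj16: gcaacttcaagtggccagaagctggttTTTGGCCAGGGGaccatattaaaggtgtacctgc
Traj43: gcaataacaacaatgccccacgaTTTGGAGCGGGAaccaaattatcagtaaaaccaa
Trbj2-1: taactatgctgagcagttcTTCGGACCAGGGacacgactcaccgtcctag

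They lie at chr14:54191661-54191725 (Traj28), chr14:54192303-54192361 (Traj27), chr14:54200386-54200446 (Traj19), chr14:54201775-54201837 (Traj17), chr14:54203134-54203194 (Traj16), chr14:54174742-54174798 (Traj43) and chr6:41542754-41542803 (Trbj2-1). The motif was searched on both strands: 59 of the 80 annotated J segments held it on the forward strand (73.8%), among them 44 of the 56 J segments with a row, and 0 held it on the other strand. In 3 of the 59 the first match opens with a leucine codon, none of them printed here. Traj27 holds 2 overlapping matches, of which the first is in capitals. Traj19 holds no match to these letters in this window. The annotated J segments are 29 to 72 bases long.

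Traj27, the highest alpha J segment in 6 of the 10 libraries, stood at 171, 137, 93.4, 73.0 and 173 normalized counts in labelled Sirt1-deleted 7, 8, 10, 11 and 12, and at 23.1, 30.1, 30.9, 25.8 and 60.7 in controls 2 to 6. The groups did not overlap, with labelled Sirt1-deleted 10 and 11 nearest to the controls and control 6 above the other controls. Its log2 difference was 1.90 (SE 0.30, limma adjusted p = 9.58e-04). Traj16 stood at 118, 99.8, 71.1, 51.7 and 166 against 16.5, 27.0, 29.0, 18.01 and 28.4, a log2 difference of 1.97 (SE 0.30, limma adjusted p = 8.19e-04). Here too, labelled Sirt1-deleted 10 and 11 were the lowest of their group.

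Traj28 rose by 1.64 on the log2 scale (SE 0.37, limma adjusted p = 0.00569), from 4.90 to 22.1 in controls to 22.7 to 57.5. Traj17 rose by 1.77 (SE 0.51, limma adjusted p = 0.0170), from 1.05 to 12.9 to 15.3 to 39.2, and Traj19 by 1.55 (SE 0.38, limma adjusted p = 0.00848), from 3.28 to 8.29 to 10.3 to 29.9 normalized counts. In each of the 3 the groups did not overlap. Traj17 and Traj19 passed the filter only through the labelled Sirt1-deleted group. Traj43 was not called (log2 difference -0.27, limma adjusted p = 0.439), with 21.3 to 50.4 against 33.3 to 52.0.

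The 5 that rose lie within a stretch of the locus from Traj28 to Traj16, 28.9 to 17.4 kb upstream of the start of Trac. The stretch was chosen after the values were seen and is bounded by called segments, so a higher sum follows from that choice. The 5 called segments made up 322 of its mean sum of 381 in the labelled Sirt1-deleted group and 86.5 of 115 in controls. The stretch holds 13 Traj rows, 12 with a higher mean in the labelled Sirt1-deleted group, and sums to 448, 409, 297, 210 and 542 in labelled Sirt1-deleted 7, 8, 10, 11 and 12 and to 79.2 to 154 in controls. The 15 rows farther upstream, out to 50.7 kb, summed to 106 ± 28.9 and 103 ± 17.8, with 6 of the 15 higher in mean. The 13 nearer to Trac summed to 94.5 ± 17.3 and 72.2 ± 9.93, with 10 of the 13 higher in mean and 4 of the 5 labelled Sirt1-deleted sums above every control. Both of those sums overlapped between groups, and the stretches were not tested against each other. The filter left 6 tested rows in the chosen stretch, 3 farther upstream and 1 nearer to Trac, so few rows outside it could be called. Within the stretch, Traj17, Traj18 and Traj19 passed the filter only through the labelled Sirt1-deleted group.

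**Figure D3:**
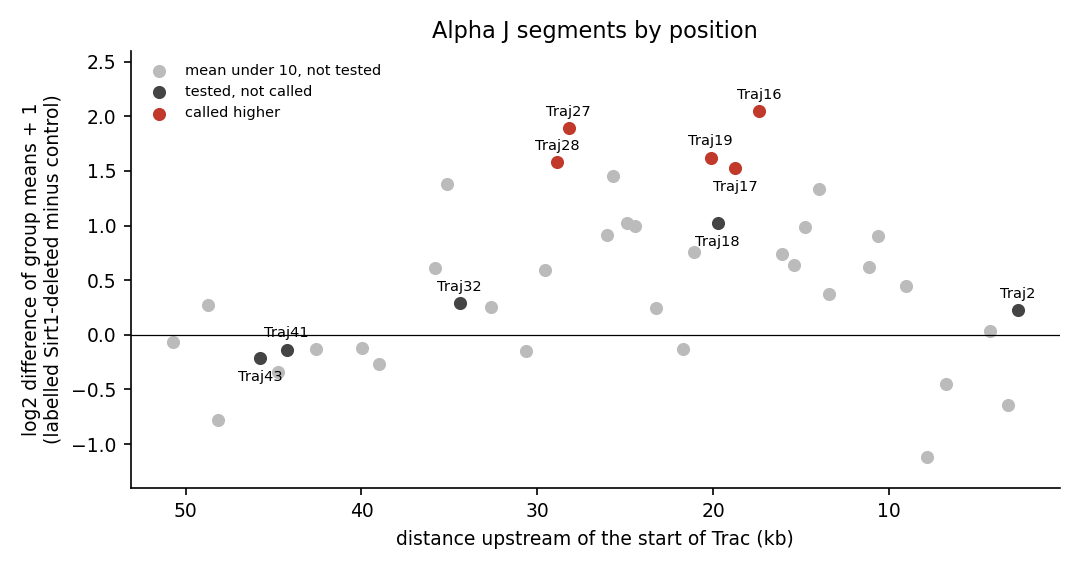
Alpha J segments by distance upstream of the start of Trac (kb, horizontal) and log2 difference of group means + 1, labelled Sirt1-deleted minus control (vertical). The 5 segments called higher lie between 28.9 and 17.4 kb, and grey points had a mean under 10 and were not tested.

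Shares within the Traj class are relative to a class sum of 582 ± 152 in the labelled Sirt1-deleted libraries and 290.3 ± 51.5 in controls, so a segment of equal level takes a smaller share in the former. Traj27 took 21.9% ± 2.77 in the labelled Sirt1-deleted libraries and 11.4% ± 2.79 in controls, and Traj16 took 16.9% ± 3.72 and 8.16% ± 1.48 (exact permutation p = 0.00794 for each, n = 5 each). Traj43 took 6.01% ± 1.75 and 13.8% ± 1.26 (exact permutation p = 0.00794). Traj27 and Traj16 had every labelled Sirt1-deleted library above every control, and Traj43 every one below. Traj3 (1.15% against 3.72%) and Traj42 (1.097% against 2.93%) also had no overlap, with labelled Sirt1-deleted libraries below. The levels of Traj43, Traj3 and Traj42, and their shares of the whole alpha chain (for Traj43 0.260% against 0.278%), overlapped between groups, and Traj3 and Traj42 had means under 10 and no test of level.

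The shares of Traj28 (7.74% against 5.001%) and Traj19 (3.33% against 2.004%) overlapped (exact permutation p = 0.0397 for each). Each of those calls was lost in 6 of the 10 comparisons without 1 library. For Traj28 these omitted labelled Sirt1-deleted 7, 10 or 12 or control 2, 3 or 6 (exact permutation p = 0.0635 to 0.0952), and for Traj19 labelled Sirt1-deleted 8, 11 or 12 or control 3, 4 or 5 (0.0635 to 0.0714). The effective number of Traj segments was 7.72 to 12.3 in the labelled Sirt1-deleted libraries (mean 10.5 ± 2.17) and 14.9 to 17.8 in controls (16.6 ± 1.04). Over the Traj rows with a mean of at least 10 alone, the difference in the mean effective number was -1.44. This is much smaller than over all 41 rows, so the size of the contrast depends on rows with a mean under 10. The sum of all 41 Traj rows relative to Trac was 3.78% to 6.98% and 2.09% to 3.46%.

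No beta J segment passed the limma test (0 of 14, of which 13 had a negative log2 difference), while 2 had an unadjusted p under 0.05, both lower, and the exact rank-sum test called 0. By the exact permutation test of each share within its class, 4 of 13 Trbj shares had p under 0.05, and across all classes 19 of 55 did (34.5%), 8 higher and 11 lower, 11 of them without overlap. Within whole chains, 6 of 11 shares did (54.5%), all without overlap. These p-values are unadjusted, and shares of a class depend on each other.

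Trbj2-1, the first J of the second cluster, led the Trbj class in all 10 libraries. Its level was 1249, 1400, 1487, 1684 and 1100 normalized counts in labelled Sirt1-deleted 7, 8, 10, 11 and 12, and 1336, 1114, 1282, 1106 and 1182 in controls 2 to 6. The groups overlapped, with a log2 difference of 0.19 (limma adjusted p = 0.170), which became 0.27 without labelled Sirt1-deleted 12 (limma adjusted p = 0.0414). Its share of the class was 20.4%, 22.4%, 24.4%, 25.4% and 26.3% in the labelled Sirt1-deleted libraries and 18.1% to 19.95% in controls. All labelled Sirt1-deleted shares lay above the controls (23.8% ± 2.39 against 18.9% ± 0.827, exact permutation p = 0.00794). Its share of the whole beta chain overlapped, at 1.04% ± 0.223 against 0.970% ± 0.111 (exact permutation p = 0.556).

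Some J segments of the first cluster had lower shares. Trbj1-4 took 10.1% ± 0.347 against 11.5% ± 0.811 (exact permutation p = 0.00794, no overlap), Trbj1-5 10.2% against 11.6% (exact permutation p = 0.0159) and Trbj1-6 8.001% against 8.74% (exact permutation p = 0.0476), the latter pair with overlap. Trbj1-5 stood at 360 normalized counts in labelled Sirt1-deleted 12 and at 641 to 679 in the other four, against 629 to 855 in controls (log2 difference -0.34, limma adjusted p = 0.117). Trbj1-1 had a log2 difference of -0.10 (limma adjusted p = 0.549). The 7 Trbj1 rows summed to 3470 ± 590 against 4112 ± 407 and the 7 Trbj2 rows to 2381 ± 398 against 2272 ± 208, both overlapping.

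**Figure D4:**
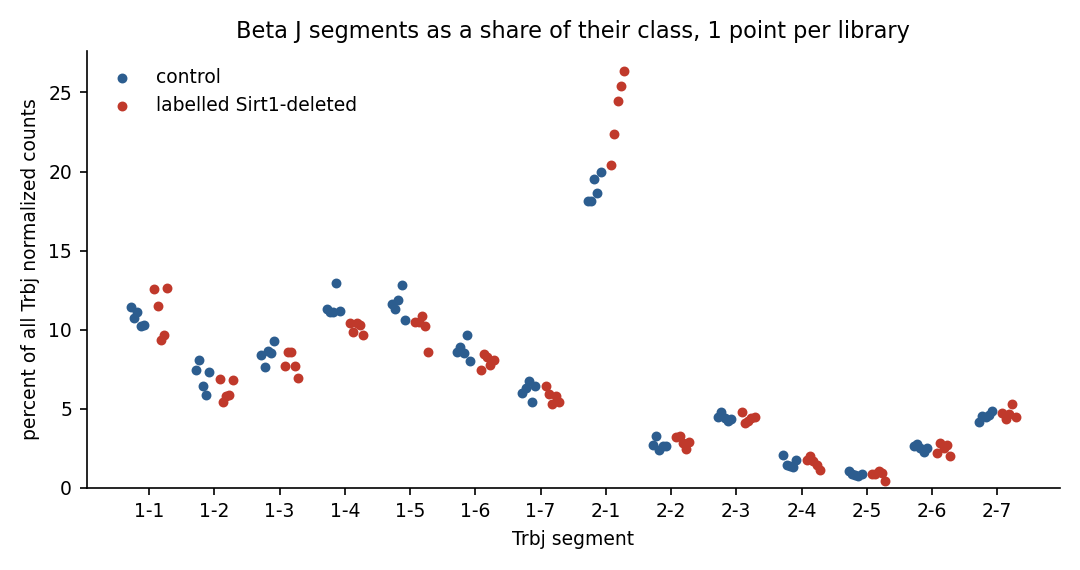
Share of each of the 14 Trbj segments in the Trbj sum (percent, vertical), with 1 point per library. Trbj2-1 is above every control in the labelled Sirt1-deleted libraries, and Trbj1-4 is below every control.

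Gamma chain transcripts were led by Tcrg-C4 (chr13:19344558-19352756), a constant gene with none of its 31-base words shared with another gene, at 3513 ± 171 in the labelled Sirt1-deleted libraries and 3802 ± 685 in controls (log2 difference -0.10, limma adjusted p = 0.493). It made up 91.6% ± 1.22 and 89.2% ± 0.880 of the chain (exact permutation p = 0.00794). Tcrg-C1 (chr13:19214103-19217024) stood at 12.04, 10.6, 16.1, 14.7 and 19.0 in labelled Sirt1-deleted 7, 8, 10, 11 and 12 and at 55.1, 53.0, 98.9, 46.2 and 74.3 in controls 2 to 6. Every labelled Sirt1-deleted library lay below every control, a 4.52-fold lower mean and the largest log2 difference of any tested segment, at -2.07 (SE 0.25, limma adjusted p = 3.01e-04).

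Tcrg-C1 shares 51.01% of its 31-base words with other genes, mostly Tcrg-C2, whose log2 difference was 0.02 (32.4 to 53.0 against 36.5 to 60.5, limma adjusted p = 0.953). Under quantile normalization the difference of Tcrg-C2 was -0.24, and its sign changed in 5 of the fits without 1 library. Tcrg-V1, the leading gamma V segment, had a log2 difference of -0.45 (limma adjusted p = 0.108), Trgv2 of -1.01 (limma adjusted p = 0.0501), Tcrg-V4 of -0.95 (limma adjusted p = 0.0912) and Trgj4 of -0.22 (limma adjusted p = 0.429). Under quantile normalization Trgv2 and Tcrg-V4 passed the threshold (limma adjusted p = 0.0150 and 0.0338). So did Trgv2 without control 5 (0.0364) or labelled Sirt1-deleted 7 (0.0224) and with a pseudocount of 5 (0.0495), and Tcrg-V4 without labelled Sirt1-deleted 8 (0.0461) or 10 (0.0446), all as limma adjusted p. Delta chain rows were near the floor: Trdc was at 3.23 to 9.11 in the labelled Sirt1-deleted libraries and 0 to 5.48 in controls, and the chain summed to 13.7 ± 7.28 and 5.48 ± 2.64, with overlap and no test.

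Genes that act with the receptor were a mixed group. Of 19 tested genes of the CD3 complex, coreceptors, recombination and proximal signalling, 2 rose and 6 fell, where 16.8% and 19.4% of all tested genes did, with a median log2 difference of -0.15 against -0.00014 for all tested genes. Cd3d (0.17), a CD3 chain, and Lat (0.35), a signalling adaptor, rose. Cd247 (-0.20), Cd8b1 (-0.47), Cd5 (-0.61), Ptprc (-0.39), Lcp2 (-0.24) and Rag1 (-0.61), the recombinase subunit, fell. Cd247 and Rag1 overlapped between groups. Rag1 stood at 4997 and 4967 in labelled Sirt1-deleted 10 and 11, within the controls (4185 to 5443), and at 2323 to 2902 in 7, 8 and 12. The recombination genes Rag2 (0.31) and Dntt (0.17) had positive differences and were not called (limma adjusted p = 0.408 and 0.328).

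Markers of the cells that a leukemic spleen could hold were read beside these values, and their part in the results was not tested. The counts below stand beside the 36.1% of all tested genes that were called in either direction. Of 8 T lineage markers 2 rose (Cd3d and Thy1) and 2 fell (Cd247 and Cd5). Thy1 led their sum of 150732 to 186253 against 130695 to 145816, at 79592 ± 17084 against 53217 ± 3677 (SD, n = 5 each). That sum therefore does not show a rise of the T lineage markers as a set. Of 7 neutrophil markers 6 rose, with sums of 22021 to 71122 against 6931 to 9692, and of 7 macrophage markers 6 rose, with sums of 3065 to 4418 against 1873 to 2248. Of 7 markers of mature host T cells 1 rose and 1 fell, and of 5 immature thymocyte markers 0 rose and 1 fell, with overlapping sums. Of 7 B cell, 5 erythroid, 4 tested NK cell and 2 tested gamma delta T cell markers, limma called 0 in either direction; at an unadjusted p under 0.05, 2 B cell markers were higher and 1 gamma delta marker lower, and the exact rank-sum test called 0. Scart1, Scart2, Il17a and Ncr1 have no row and were not used.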

How the data were processed

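Spleen RNA from 10 mice was measured. The deposited table holds normalized counts (a normalized signal, not raw counts) that the authors made, per the file name, with DESeq normalization. Per the submitters' processing notes the tools were kallisto 0.44.0 and DESeq and the build mm10. Which annotation they used is not given in the sources used here. Whole reads could not be recovered from the values, so raw depth is unknown and count tests were not used. The table has 0 columns outside the 10 samples.

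Samples were grouped by the genotype label. Log2(value + 1) was fitted with limma 3.58.1 in R 4.3.3, with group as the only term and an intensity trend, for all genes with a mean of at least 10, and p-values were adjusted by Benjamini-Hochberg over all of them at 0.05. Log2 differences of low genes are understated on this scale. Shares of a chain, or of a class (V, J or C of a chain), were compared where they averaged at least 1% of a sum of at least 100, with an exact permutation test (two-sided, 252 assignments of samples). Sums and effective numbers received no test. Lengths, positions, 31-base words and sequences come from GENCODE M21. The fit was tested on simulated data.

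Genes named are the constant genes, the 3 highest of each V or J class with a mean of at least 10, and the 5 largest rises and falls among called segments. Traj3, Traj42, Trbj1-4, Trbj1-6, Traj18, Traj41 and Trbv20 are outside that rule and were named after their values were seen. The segments and lists were chosen with earlier results of these data known. Each result was recomputed with a pseudocount of 0.1 or 5, with the minimum mean at 1 or 50 or without it, with upper-quartile or quantile scaling, with a rank-sum test, with other sums, and without each library in turn.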

Additional observations from a re-analysis of the deposited data

Results flagged for a closer look

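Among 116 sets of 5 values (a group's levels, shares or effective numbers), 7 had a highest or lowest library whose gap to the next exceeded 0.71 of the range, where chance gives about 1 in 20, or 5.8. Control 6 was high for Traj27, at 60.7 normalized counts against 23.1 to 30.9 in the other controls, and its Traj27 share of the class was 16.3% against 9.49% to 11.1%. Labelled Sirt1-deleted 12 was low for Trbj1-5, at 360 against 641 to 679 normalized counts, with a class share of 8.61% against 10.3% to 10.9%. Labelled Sirt1-deleted 11 had a Tcrg-V1 share of 90.7% of the gamma V class against 84.1% to 84.9%, and an effective number of gamma V segments of 1.21 against 1.36 to 1.39. Labelled Sirt1-deleted 7 had a Trgv2 share of 12.1% against 2.64% to 4.29%.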

How the results depend on the processing

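The number of segments called was 13 as reported, 8 with a minimum mean of 50 (3 higher, 5 lower, of 28 tested), 18 under quantile normalization (6 higher, 12 lower), 11 by the exact rank-sum test, and 12 to 17 when 1 library was left out. Without labelled Sirt1-deleted 10 and 11, an alternative chosen after seeing the data, it was 20. Of all tested genes, 43.6% were called with the minimum mean of 50 and 45.6% without those libraries, against 36.1% as reported. Quantile and upper-quartile scaling shifted the median of all tested genes by less than 0.1 on the log2 scale. Trbv12-2 ranged from -0.60 to -0.43, Trav7-5 from -0.85 to -0.60, Traj27 from 1.78 to 2.12, Trbc2 from 0.34 to 0.43 and Tcrg-C1 from -2.18 to -1.91 when 1 library was left out, with limma adjusted p at most 0.00965 in those fits. With V and J only, also chosen after seeing the data, chain totals were -0.401 (alpha), -0.414 (beta) and -0.393 (gamma). With only Traj members of mean at least 10, the difference in effective number shrank to -1.44. Over all Traj members it was -6.55 to -5.41 when 1 library was left out. Signs changed for Tcrg-C2 (-0.243 under quantile normalization; -0.050 to 0.136 without 1 library), Trac (0.011 without labelled Sirt1-deleted 10 and 11) and the class share of Trav15n-1 (-0.259 points with subgroups summed; -0.047 to 0.567 without 1 library); the cause was not tested. Shares within a chain gave 6 or 7 calls, and within a class 14 to 20, under every alternative run. Depth is unknown, so no counting error is given for low segments. No paired analysis was possible because no replicate number occurs in both groups.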
